A study of Homo sapiens with 28 samples.

Results

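The 8 genes FOS, FOSB, FOSL1, FOSL2, JUN, JUNB, JUND and ATF3 of the AP-1 family were examined for open chromatin in AN3CA cells, a human endometrial carcinoma line. Every peak within 50 kb of a gene's start site (hg19) was a member, which gave 1713 of 1247388 peaks in 28 ATAC-seq peak lists. ATAC-seq marks open chromatin by where a transposase can insert. Merged at equal list length, these peaks formed 51 of 32972 regions, of which 7 lay within 1 kb of a start site (promoter regions) and 44 lay farther away (distal regions). FOS had 5 regions, FOSB 10, FOSL1 6, FOSL2 2, JUN 4, JUNB 13, JUND 6 and ATF3 5.

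The cells expressed wild-type ARID1A (2 libraries), wild-type ARID1B (2 libraries), 1 of 10 altered constructs (2 libraries each) or an empty vector (4 libraries), and all were of the same cell line. ARID1A and ARID1B are alternative large subunits of the canonical BAF (cBAF) chromatin remodeller, and both carry a DNA-binding ARID domain and a long disordered region (IDR). By the labels, CBR and delIDR1 are truncations of ARID1A, DBDmut has a mutated ARID domain and DDX4 is a hybrid with an IDR. AQGscramC1C2 and ARID1A_Y42S are further ARID1A constructs, and S320_G327del, A457_G461del, Block13del and Block9del are ARID1B constructs. For 10 libraries of 5 constructs (AQGscramC1C2, ARID1A_Y42S, A457_G461del, Block13del and Block9del) the genotype label says empty vector while the title names the construct. They were grouped by title, and the peak names in their lists carry the construct. The series' design text describes CUT&Tag, whereas the titles say ATAC-seq. The labels do not say whether AN3CA cells make their own ARID1A or ARID1B, how much of each construct was made, or whether replicates were separate cultures, so p-values measure only the spread between libraries, which may be technical.

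Date codes in the peak names divided the libraries into 6 runs, A to F. Runs A and B each held 1 library of ARID1A wild type, DBDmut, delIDR1, CBR and empty vector. Run C held ARID1B wild type 1 and 2, S320_G327del 1 and 2 and empty vector 3 and 4. The other constructs came from runs D, E and F, which held no control, so construct and run cannot be told apart for them.

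AP-1 is a dimeric transcription factor built from FOS proteins (FOS, FOSB, FOSL1, FOSL2), JUN proteins (JUN, JUNB, JUND) and relatives such as ATF3, which pair through a leucine zipper. FOS proteins need a JUN partner to bind DNA, while JUN proteins can also pair with each other. FOS, FOSB, JUN, JUNB and ATF3 are induced within minutes to hours of growth or stress signals, whereas JUND is made more evenly. AP-1 binds the element TGAGTCA, which is common in enhancers, and BAF complexes are known to bind and open enhancers together with AP-1.

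Promoter windows of 300 bases, 250 before and 50 from the start site, were read from RefSeq (GRCh38.p14), and 7 of the 8 genes matched (FOSL1 did not). The windows of FOS, FOSL2, JUN and JUND are shown because each carries an element through which AP-1 genes are known to be read or to regulate themselves. Capitals mark TATAAA in FOS, the AP-1 element, read on the other strand, in FOSL2, the variant TGACATCA in JUN and TGACGTCA in JUND.
FOS, chr14:75278578-75278877, plus strand: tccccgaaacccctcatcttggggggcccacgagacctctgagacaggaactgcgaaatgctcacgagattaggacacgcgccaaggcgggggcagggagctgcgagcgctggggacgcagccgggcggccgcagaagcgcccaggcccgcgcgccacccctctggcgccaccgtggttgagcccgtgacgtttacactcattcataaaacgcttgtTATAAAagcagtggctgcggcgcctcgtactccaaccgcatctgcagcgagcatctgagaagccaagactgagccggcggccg
FOSL2, chr2:28392608-28392907, plus strand: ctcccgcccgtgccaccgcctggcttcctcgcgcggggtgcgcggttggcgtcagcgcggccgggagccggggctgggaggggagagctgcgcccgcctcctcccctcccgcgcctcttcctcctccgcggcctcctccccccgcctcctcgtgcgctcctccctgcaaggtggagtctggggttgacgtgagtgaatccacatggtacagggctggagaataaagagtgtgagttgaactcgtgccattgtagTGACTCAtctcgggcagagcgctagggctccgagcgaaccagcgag
JUN, chr1:58783998-58784297, minus strand: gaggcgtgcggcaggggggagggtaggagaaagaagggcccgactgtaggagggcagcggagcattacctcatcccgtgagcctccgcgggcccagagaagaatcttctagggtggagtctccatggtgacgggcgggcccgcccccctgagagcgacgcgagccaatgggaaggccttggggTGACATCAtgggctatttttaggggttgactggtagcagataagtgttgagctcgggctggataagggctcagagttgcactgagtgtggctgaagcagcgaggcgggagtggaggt
JUND, chr19:18281573-18281872, minus strand: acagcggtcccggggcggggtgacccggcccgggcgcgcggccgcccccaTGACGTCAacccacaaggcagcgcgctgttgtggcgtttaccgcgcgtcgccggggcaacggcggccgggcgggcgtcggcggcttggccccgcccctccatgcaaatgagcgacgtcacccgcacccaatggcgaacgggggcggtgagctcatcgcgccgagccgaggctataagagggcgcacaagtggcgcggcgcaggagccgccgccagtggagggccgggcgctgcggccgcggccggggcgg

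Both strands of the 8 windows (ATF3 has 2) were searched. TATAAA was found in 4 windows (FOS, FOSB, JUNB and the second of ATF3), against 11.5% of 35116 RefSeq windows. TGAGTCA, the AP-1 element itself, was in FOSL2 only, where its first base lies at position 5 from the start, and is held by 4.95% of all windows. TGACGTCA, the cAMP response element, was in JUND at position -200 and is held by 1.85% of all windows. TGACATCA, bound by JUN and ATF2 dimers and searched after the promoters had been read, was in JUN at position -67 and in the first ATF3 window at position -123, against 2.61% of all windows. CCAAT was in 4 windows (34.6% of all), GGGCGG in 6 (45% of all), and the CArG box, a serum response core, in none (1.29% of all). The windows end 250 bases before the start, and elements farther upstream were not searched. The share of G or C was 64.7% in FOS, 64% in FOSB, 68.7% in FOSL2, 62% in JUN, 71% in JUNB, 77% in JUND, and 48% and 46.3% in the ATF3 windows, against a median of 58.7% over all windows. These letters are a description of the windows and were not measured as bound sites.

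The lists hold no read counts, so depth is unknown and a peak's place in its own list was the measure. Wild-type lists held 59826 to 76589 peaks, against 24573 to 49528 in empty vector. Each list was therefore cut to its best 19433 peaks by the authors' −log10 p, the length of the shortest list. A region's rank score is the percent of that list ranked at or below its best peak, up to 100 for the top peak and 0 where no peak was called. A score is relative: a region can rank lower because others passed it. Regions were tested with limma over all 32972 regions and 28 libraries, with Benjamini-Hochberg adjustment and a threshold of 0.05, two-sided. All groups shared the estimate of the spread, and groups not called score 0 with no spread. Where few lists call a region, its SE can therefore be too small and its p-value too low.

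At the FOS promoter (hg19 chr14:75743596-75746401, 2806 bp, spanning the start of the prototype immediate early gene), the rank in lists of equal length was lower with wild-type ARID1 in each of runs A, B and C, a difference that whole lists of unequal length did not keep. Rank scores were 35.5 and 26.7 in ARID1A wild type 1 and 2 and 1.45 and 0 in ARID1B wild type 1 and 2, against 49.4, 56.4, 56.9 and 49.3 in empty vector 1 to 4. The groups did not overlap. The mean was 15.9 ± 17.9 in wild type and 53.0 ± 4.23 in empty vector (SD, n = 4 each), a difference of -37.1 ± 4.8 (SE, limma adjusted p = 7.97e-06). Within runs, run A gave 35.5 in ARID1A wild type against 49.4 in empty vector, run B 26.7 against 56.4, and run C 1.45 and 0 in ARID1B wild type against 56.9 and 49.3.

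The peak itself was called in all 28 whole lists. In whole lists it ranked 12543 and 14249 in ARID1A wild type and 19153 and 21345 in ARID1B wild type, against 9826, 8474, 8372 and 9863 in empty vector. Its fold enrichment over the caller's background, the authors' value, was 3.09 and 2.95 in ARID1A wild type against 3.37 and 3.37 in empty vector of the same runs. It was 3.53 and 3.82 in ARID1B wild type, against 4.82 and 4.17 in empty vector of run C. As a percent of whole lists of unequal length the FOS promoter differed by 0.645 in the opposite direction (limma adjusted p = 0.970), and ranked by fold enrichment by -3.15 (limma adjusted p = 0.760). Restricted to peaks that all 28 whole lists call, the difference was -19.8 (limma adjusted p = 0.0137), and in lists of 9716 peaks it was -6.66 (limma adjusted p = 0.403).

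Each wild type passed at the FOS promoter against all 4 empty-vector libraries. ARID1A wild type differed from empty vector by -21.9 ± 5.9 (SE, limma adjusted p = 0.0184) and ARID1B wild type by -52.3 ± 5.9 (limma adjusted p = 1.12e-06). Against empty vector of runs A and B alone, ARID1A wild type no longer passed (-21.8 ± 5.2, limma adjusted p = 0.0873), while ARID1B wild type did against run C (-52.4 ± 5.2, limma adjusted p = 0.00373). The difference between these effects, taken against empty vector of the same runs, was 30.5 and did not pass (limma adjusted p = 0.0946). Among altered constructs, S320_G327del averaged a score of 6.68 and A457_G461del 35.4, and both were lower than empty vector (limma adjusted p = 3.60e-06 and 0.0487). CBR, DBDmut and delIDR1 averaged 38.1, 38.6 and 39.8 without passing. Block9del, Block13del, AQGscramC1C2, ARID1A_Y42S and DDX4 averaged 50.8, 51.7, 48.2, 56.0 and 62.9, and none of these passed.

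The other 6 promoter regions did not pass the test, and wild-type and empty-vector scores overlapped at each. FOSL2, whose product partners JUN proteins, had the best promoter of the family, with scores of 85.7, 89.8, 81.9 and 80.4 in wild type, against 80.8, 93.3, 85.6 and 80.8 in empty vector. The FOSL2 difference was -0.67 ± 3.0 (SE, limma adjusted p = 0.988), and over all 28 libraries its score stayed between 74.4 and 95.5. JUN had scores of 56.7, 67.4, 73.2 and 83.7 in wild type, against 74.4, 68.5, 87.9 and 83.6 in empty vector, a difference of -8.33 ± 4.8 (limma adjusted p = 0.245). FOSB had 54.5, 56.6, 80.8 and 50.7 in wild type and 65.0, 50.7, 79.4 and 80.5 in empty vector, a difference of -8.24 ± 8.6 (limma adjusted p = 0.571).

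JUND, the evenly made JUN protein, had promoter scores of 55.8, 56.3, 56.6 and 83.5 in wild type, against 53.5, 59.9, 84.5 and 71.4 in empty vector, a difference of -4.26 ± 6.3 (SE, limma adjusted p = 0.726). JUNB, often an antagonist of JUN, had 60.3, 55.4, 55.5 and 50.2 in wild type and 59.1, 55.9, 54.6 and 58.2 in empty vector. The JUNB groups were close together, with a difference of -1.58 ± 7.6 (limma adjusted p = 0.996). FOSL1, which encodes FRA1, had 48.5, 40.5, 26.1 and 38.9 in wild type and 44.6, 54.1, 26.2 and 34.6 in empty vector, a difference of -1.33 ± 7.6 (limma adjusted p = 1). In whole lists the FOSL1 and JUNB promoters turned higher in wild type, by 17.8 and 11.4 (limma adjusted p = 0.0369 and 0.0137).

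By mean score in empty vector the promoters stood in the order FOSL2 (85.1), JUN (78.6), FOSB (68.9), JUND (67.3), JUNB (56.9), FOS (53.0) and FOSL1 (39.8). In wild type the order was FOSL2 (84.5), JUN (70.3), JUND (63.0), FOSB (60.6), JUNB (55.4), FOSL1 (38.5) and FOS (15.9). In the empty-vector order, the ranges of the 4 libraries overlapped between every pair of neighbours. Among the altered constructs, the lowest single promoter scores other than FOS were 4.02 for FOSL1 in S320_G327del 2 and 4.15 for JUNB in CBR 2. The second was not shared by CBR 1, which had 47.8, and CBR did not pass there (limma adjusted p = 0.0703). For ATF3, a stress-induced repressor, 1 start site was used (hg19 chr1:212738676). No peak lay within 1 kb of it in any of the 28 lists, among 140 member peaks. The gene has 2 RefSeq windows (GRCh38.p14 chr1:212565157-212565456 and chr1:212614768-212615067). The second lies farther downstream of the first than any ATF3 region counted here lies from the start site. Whether a region counted here as distal holds another start of the gene was not tested.

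**Figure D1:**
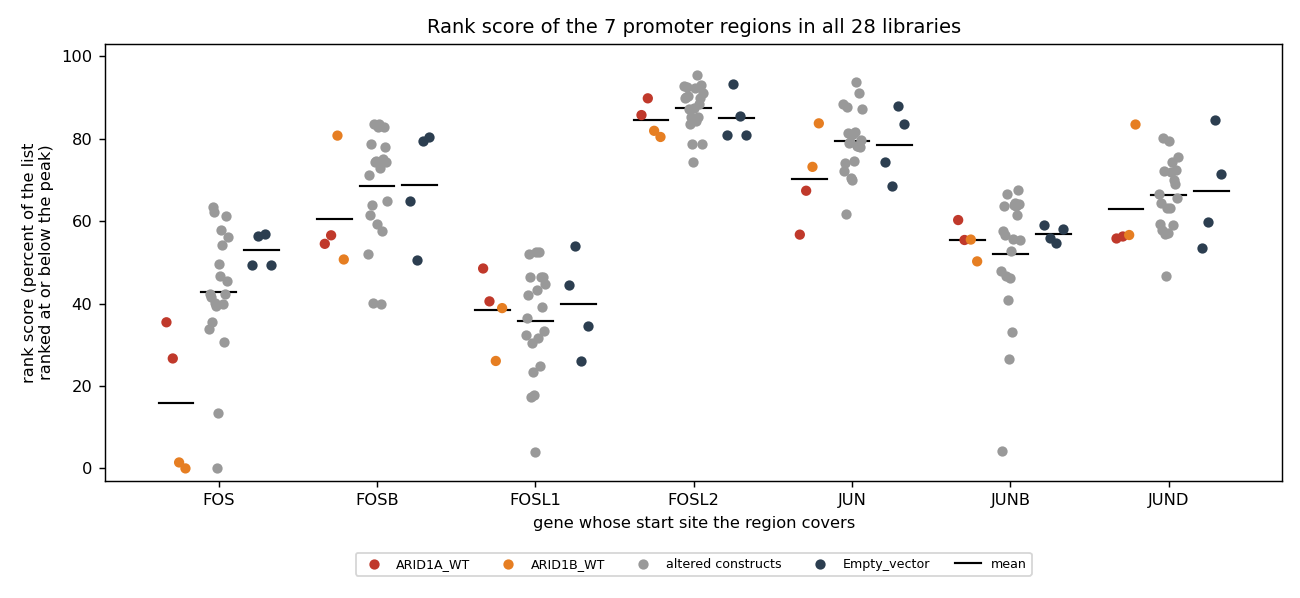
Rank score (percent of the equal-length list, vertical axis) of the 7 promoter regions in all 28 libraries, with wild types left, altered constructs in grey and empty vector right, and bars at the means. At the FOS promoter the 4 wild-type libraries sit between 0 and 35.5, all below the empty-vector libraries at 49.3 to 56.9, whereas the groups overlap at the other 6.

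By size, the 3 largest differences in favour of wild-type ARID1 lay around ATF3, and that of FOSL2 36.2 kb upstream was close to the last of them. A region 46.2 kb upstream (hg19 chr1:212691726-212692509) scored 52.0 and 51.4 in ARID1A wild type and 41.7 and 43.4 in ARID1B wild type. No empty-vector library called it, even in the whole lists. The difference was 47.1 ± 2.7 (SE, limma adjusted p = 2.94e-10), with 51.7 ± 3.4 for ARID1A and 42.6 ± 3.4 for ARID1B. Its fold enrichment in wild type was 5.03 to 5.99, and it ranked 9337, 9452, 11328 and 11001 in the whole lists. In whole lists both libraries of CBR, DBDmut, delIDR1, S320_G327del, A457_G461del and Block13del also called it, and none of DDX4, AQGscramC1C2, ARID1A_Y42S, Block9del or empty vector did. At equal length, S320_G327del passed, with a mean score of 35.7 (limma adjusted p = 5.86e-08). In lists cut to 9716 peaks, close to its ranks in wild type, the wild-type difference was 1.66 (limma adjusted p = 0.264).

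A region 1.3 kb downstream of the ATF3 start (hg19 chr1:212739940-212741366), the nearest open site to it that passed, was called by all 28 whole lists. It scored 50.4 and 58.8 in ARID1A wild type and 57.0 and 65.4 in ARID1B wild type, against 30.9, 35.2, 26.4 and 0 in empty vector. The groups did not overlap, and the difference was 34.8 ± 8.0 (SE, limma adjusted p = 0.00328). S320_G327del (56.0) and A457_G461del (56.9) were also higher than empty vector (limma adjusted p = 0.0140 and 0.0232), while DBDmut (51.1) and delIDR1 (46.7) did not pass. Ranked by fold enrichment the difference turned to -2.50 (limma adjusted p = 1). Fold enrichment was 5.58 to 7.49 in wild type and 5.33 to 6.84 in empty vector.

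A region 30.5 kb downstream of ATF3 (hg19 chr1:212769181-212770194) was high in ARID1A wild type, at 67.2 and 64.1, and 0 in both ARID1B wild-type libraries. Empty vector scored 0, 15.7, 0 and 0. The wild types together differed from empty vector by 28.9 ± 3.8 (SE, limma adjusted p = 7.95e-06), with 61.7 ± 4.6 for ARID1A (limma adjusted p = 1.64e-08) and -3.93 for ARID1B (limma adjusted p = 0.637). In the whole lists ARID1B wild type did call it, at ranks 24587 and 38182, and empty vector 1 and 2 called it at 26356 and 16377. DBDmut (48.2) and S320_G327del (40.9) were higher than empty vector (limma adjusted p = 4.68e-06 and 2.65e-06). delIDR1, at 3.66, and CBR, at 11.8, did not pass. Ranked by fold enrichment the combined difference was 13.4 (limma adjusted p = 0.345).

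**Figure D2:**
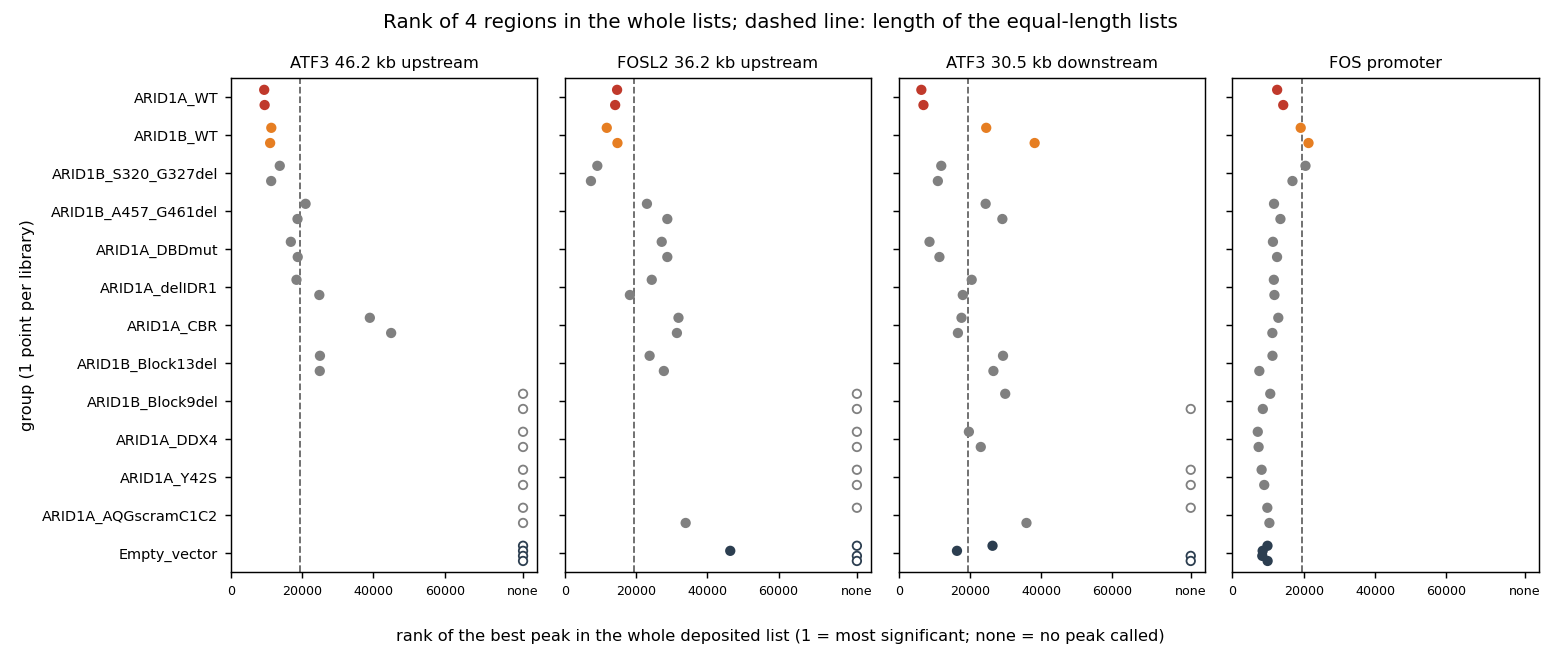
Rank of the best peak in the whole deposited lists (horizontal axis, 1 is best, open points at none have no peak) for the 3 higher regions with the smallest adjusted p and the FOS promoter, 1 point per library, groups down the page; the dashed line is rank 19433. ATF3 46.2 kb upstream ranks 9337 to 11328 in wild type and is called by no empty-vector library, while the FOS promoter ranks 12543 to 21345 in wild type and 8372 to 9863 in empty vector.

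A further 3 distal regions ranked higher with wild-type ARID1. FOSL2 36.2 kb upstream (hg19 chr2:28578212-28579622) scored 24.5, 27.3, 39.4 and 23.9 in wild type and 0 in all 4 empty-vector libraries, of which empty vector 2 alone called it in its whole list, at rank 46449. The difference was 28.8 ± 2.8 (SE, limma adjusted p = 1.72e-07). The difference was 25.9 for ARID1A and 31.6 for ARID1B. Against empty vector of the same runs the limma adjusted p was 0.0664 for ARID1A and 0.0224 for ARID1B. S320_G327del had the highest group mean, 57.6 (limma adjusted p = 9.13e-11). It is the only distal region of FOSL2 at equal length. DBDmut, CBR, A457_G461del and Block13del called it in both whole lists but not at equal length. In lists of 9716 peaks it was called by no wild-type library.

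FOSB 11.6 kb upstream (hg19 chr19:45958982-45959661) scored 39.5 and 33.6 in ARID1A wild type and 0 in both ARID1B wild-type libraries and in all of empty vector. The wild types together differed by 18.3 ± 3.7 (SE, limma adjusted p = 0.000957) and ARID1A alone by 36.5 ± 4.5 (limma adjusted p = 7.80e-06). The ARID1B peaks stood at ranks 23163 and 20265 of their whole lists, outside the best 19433, and no empty-vector list held a peak there. S320_G327del scored 41.8 (limma adjusted p = 3.71e-07). Ranked by fold enrichment the wild-type difference was 5.72 (limma adjusted p = 0.719).

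JUND 33.1 kb downstream (hg19 chr19:18358938-18359406) scored 27.8 and 52.6 in ARID1B wild type and 0 in ARID1A wild type and in empty vector. In whole lists ARID1A wild type 1 and 2 did call it, at ranks 40498 and 27495, and no empty-vector library did. The difference over both wild types was 20.1 ± 4.6 (SE, limma adjusted p = 0.00306) and for ARID1B 40.2 ± 5.6 (limma adjusted p = 1.76e-05). Only 3 libraries called it at equal length and 9 in whole lists, and the test made too many calls on simulated data. With run as a term it no longer passed (limma adjusted p = 0.0641).

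In the other direction, besides the FOS promoter, 2 distal regions passed whichever library was left out. FOSB 23.2 kb upstream (hg19 chr19:45946298-45948046) was called by none of the wild-type libraries at equal length and scored 17.4, 10.5, 30.3 and 11.8 in empty vector. The difference was -17.5 ± 4.0 (SE, limma adjusted p = 0.00269). In the whole lists all 8 libraries called it, at ranks 23225, 23512, 32504 and 24144 in wild type and 16043, 17389, 13541 and 17136 in empty vector. CBR, S320_G327del and A457_G461del, all at 0, were lower too (limma adjusted p = 0.0453, 0.00836 and 0.0165). FOSL1 39.4 kb downstream (hg19 chr11:65624543-65628554) scored 34.3, 45.5, 16.6 and 0 in wild type and 50.3, 54.9, 52.2 and 48.4 in empty vector, a difference of -27.4 ± 5.5 (SE, limma adjusted p = 0.000900). ARID1B wild type alone differed by -43.2 (limma adjusted p = 5.65e-05), while ARID1A wild type, with -11.5, did not pass (limma adjusted p = 0.365). As percent of whole lists both turned to the other direction, at 6.63 and 4.99, without passing, and among peaks shared by all whole lists they were -5.11 and -12.4 (limma adjusted p = 0.417 and 0.182).

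Another 6 distal regions were lower in wild type with all libraries, and each lost the call when single libraries were left out. FOSB 38.3 kb downstream (hg19 chr19:46009508-46012885) scored 15.3, 55.2, 33.7 and 11.9 in wild type and 53.9, 57.4, 54.7 and 48.8 in empty vector (-24.7, limma adjusted p = 0.0439). The groups overlapped, since ARID1A wild type 2 stood above empty vector 1, 3 and 4. Without ARID1A wild type 1 the difference was -14.7 (limma adjusted p = 0.252) and without ARID1B wild type 2 it was -19.2 (limma adjusted p = 0.176). Without empty vector 1, 2, 3 or 4 the limma adjusted p was 0.0794, 0.0938, 0.0790 or 0.0564, and with run as a term it was 0.0973.

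JUNB 15.5 kb upstream (hg19 chr19:12886067-12886802) scored 40.3, 10.7, 0 and 15.6 in wild type and 42.1, 42.8, 58.7 and 40.9 in empty vector (-29.5, limma adjusted p = 0.0220). The groups did not overlap, by a small gap between 40.3 in ARID1A wild type 1 and 40.9 in empty vector 4. The call was lost without ARID1A wild type 2, ARID1B wild type 1 or empty vector 3 (limma adjusted p = 0.127, 0.0822 and 0.0704) and with run as a term (limma adjusted p = 0.0603). JUN 31.0 kb upstream (hg19 chr1:59280796-59282632) scored 0, 6.27, 0 and 0 in wild type and 18.0, 27.2, 11.6 and 12.2 in empty vector (-15.7, limma adjusted p = 0.0481). Again the groups did not overlap. The limma adjusted p was 0.138 or 0.0656 without ARID1A wild type 1 or 2, 0.0871 or 0.0937 without ARID1B wild type 1 or 2, and 0.0888 or 0.149 without empty vector 1 or 2.

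JUND 9.7 kb upstream (hg19 chr19:18402196-18404421) scored 32.3 and 41.7 in ARID1A wild type and 0 in both ARID1B wild-type libraries, against 32.1, 44.1, 37.9 and 35.5 in empty vector (-18.9, limma adjusted p = 0.0283). Only ARID1B stood apart from empty vector there (-37.4, limma adjusted p = 0.000699), and the difference between the wild types did not pass (35.6, limma adjusted p = 0.0967). The combined call was lost without ARID1A wild type 1, ARID1B wild type 1 or 2, or empty vector 2 or 3 (limma adjusted p = 0.0988, 0.0530, 0.0570, 0.0813 and 0.0522). FOS 18.5 kb upstream (hg19 chr14:75725290-75727001), the best-ranked distal region of the family, scored 96.4, 92.1, 86.6 and 82.7 in wild type and 96.6, 94.8, 93.2 and 97.0 in empty vector (-5.98, limma adjusted p = 0.0397). It was lost without ARID1A wild type 2, ARID1B wild type 2, or empty vector 1, 2 or 4 (limma adjusted p = 0.159, 0.145, 0.0919, 0.0613 and 0.0969) and with run as a term (limma adjusted p = 0.0822).

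ATF3 42.6 kb downstream (hg19 chr1:212781313-212783261) scored 69.4, 71.3, 71.1 and 46.1 in wild type and 76.0, 76.8, 79.5 and 78.8 in empty vector (-13.3, limma adjusted p = 0.0328). Without ARID1B wild type 2, the lowest library, the difference was -7.04 (limma adjusted p = 0.196). It was also lost without ARID1A wild type 1 or 2 (limma adjusted p = 0.0880 and 0.0665), without empty vector 2, 3 or 4 (limma adjusted p = 0.0543, 0.0697 and 0.0666) and with run as a term (limma adjusted p = 0.0779). So the ATF3 surroundings held 3 regions that ranked higher and 1 that ranked lower, out of 5.

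Over the whole family, 6 of 51 regions ranked higher with wild-type ARID1 (11.8%, against 14.0% of all regions) and 9 ranked lower (17.6%, against 8.78% of all regions). The other 36 did not pass. The median difference was -5.98 over the 51 regions and -0.66 over all regions. The family regions also had a higher median score, 32.9 against 14.8 over all regions, and a region near 0 has little room to rank lower. Whether this set the counts was not tested. Of the 51, 2 were called in all 4 wild-type and no empty-vector library (ATF3 46.2 kb upstream and FOSL2 36.2 kb upstream; 5.78% of all regions), and 1 the opposite way (FOSB 23.2 kb upstream; 2.27% of all regions). The 2 groups' scores did not overlap at 10 regions, against 14.3% of all regions. FOSB 16.4 kb upstream was among these without passing, with 50.7, 46.9, 38.2 and 38.8 in wild type and 58.1, 64.9, 53.0 and 52.5 in empty vector (-13.5, limma adjusted p = 0.144). In all, 18 of 51 regions (35.3%, against 30.1% of all) were called in all 28 equal-length lists, among them 6 of the 7 promoter regions. At FOSB, DDX4 1 and ARID1A_Y42S 2 had no peak within 1 kb of the start. Their call came from a peak in the merged region that lay farther away.

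The lower count depended on single libraries. It was 5 without ARID1A wild type 1, ARID1A wild type 2, ARID1B wild type 2 or empty vector 3, and 4 without empty vector 2. In whole lists, where wild-type lists are longer, 8 of the 9 lower regions turned to the other direction and FOS 18.5 kb upstream did not pass, while 27 of 89 family regions ranked higher, against 38.5% of all. There 13 of 89 were gained (14.6%, against 18.2% of all regions) and 0 were lost (0.0828% of all regions). JUNB had the most regions of the family, 13, but only 1 of them passed in the wild-type test; its distal region with the highest mean over all 28 libraries, 33.2 kb upstream, scored 62.5, 67.1, 49.3 and 35.8 in wild type and 77.0, 58.0, 51.8 and 46.5 in empty vector (limma adjusted p = 0.744). By the same mean over 28 libraries, the best distal regions of FOSB (43.0 kb upstream, -1.64), JUND (46.6 kb upstream, -1.29) and FOSL1 (18.0 kb upstream, -11.6) did not pass either (limma adjusted p = 0.929, 0.975 and 0.146).

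**Figure D3:**
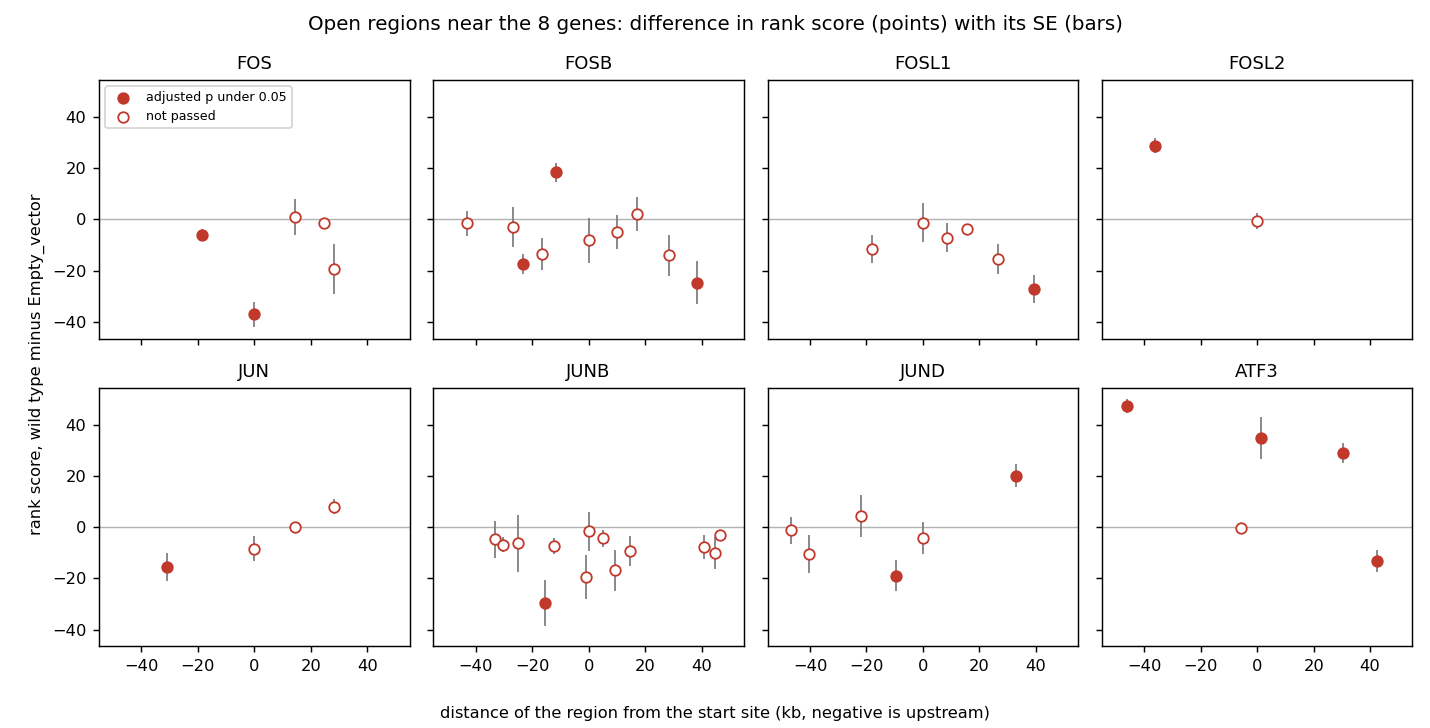
Difference in rank score, wild-type ARID1 minus empty vector (vertical axis, bars are SE), of the 51 regions by distance from the gene's start site in kb, 1 panel per gene, with filled points past the threshold. The 6 higher regions reach 47.1 at ATF3 46.2 kb upstream and are all distal, and the FOS promoter at -37.1 is the lowest and the only promoter that passed at equal length, where 8 of the 9 lower regions turn positive in whole lists.

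The altered constructs gave 9 higher and 29 lower calls over 510 pairs of region and construct, and these comparisons share the empty-vector libraries. S320_G327del, an ARID1B deletion in run C, had most of them, 6 higher (18.4% of all regions were) and 16 lower (16.4% of all). Its 6 higher regions were FOSB 11.6 kb upstream, FOSL2 36.2 kb upstream, JUN 28.1 kb downstream and 3 at ATF3. Its lower regions included the FOS and FOSL1 promoters, and at FOSL1 the mean score was 10.9, against 39.8 in empty vector (limma adjusted p = 0.0214). A457_G461del had 1 higher (10.2% of all) and 7 lower (6.41% of all), with ATF3 1.3 kb downstream as the higher.

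ARID1B wild type itself had 4 higher (14.2% of all) and 11 lower (10.3% of all), and ARID1A wild type 6 higher (8.26% of all) and 2 lower (2.94% of all). JUN 28.1 kb downstream scored 1.25 and 23.6 in ARID1A wild type (SD 15.8, against an SE of 3.63 in the fit) and 0 in empty vector and most other groups. It passed with ARID1A wild type against all empty-vector libraries (12.4, limma adjusted p = 0.0314) but not against those of its own runs (limma adjusted p = 0.560) nor with both wild types together (8.04, limma adjusted p = 0.0599). Of the ARID1A constructs, DBDmut had 1 higher (ATF3 30.5 kb downstream; 2.55% of all) and 0 lower (0.488% of all). delIDR1 had 0 higher (3.87% of all) and 2 lower (1.31% of all), which were FOSL1 26.5 kb downstream and JUND 9.7 kb upstream. CBR had 0 higher (3.61% of all) and 1 lower (1.04% of all), and DDX4 0 higher (1.81% of all) and 1 lower (1.63% of all), FOSB 16.4 kb upstream.

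AQGscramC1C2 had 0 higher (0.124% of all) and 0 lower (0.0667% of all), and Block9del 0 higher (0.494% of all) and 0 lower (0.27% of all). Both were compared with empty vector of other runs. ARID1A_Y42S had 1 higher (0.925% of all) and 1 lower (0.519% of all), and Block13del 0 higher (1.19% of all) and 1 lower (0.77% of all). The ARID1A_Y42S call, ATF3 5.9 kb upstream, was small, with a mean score of 5.15 against 0.184 in empty vector (limma adjusted p = 0.00789).

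**Figure D4:**
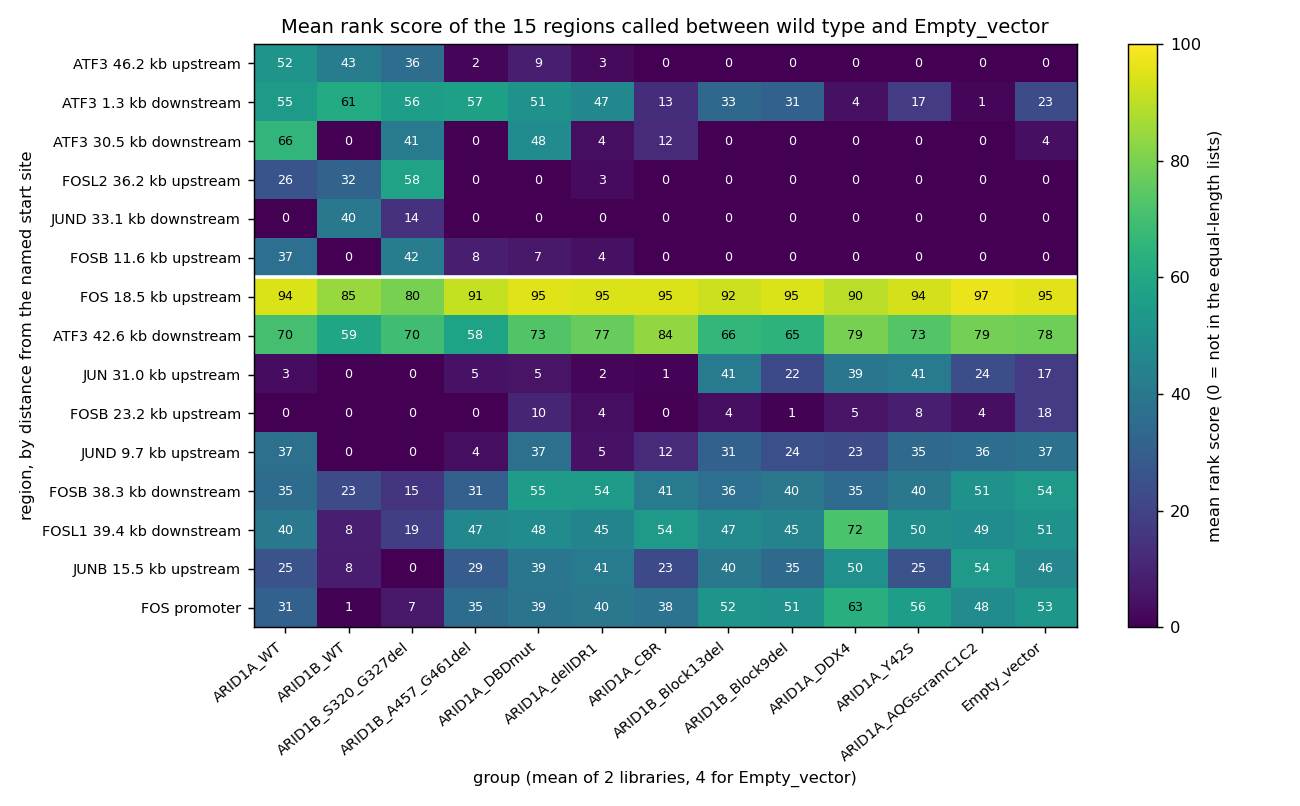
Mean rank score per group (colour and printed number, 0 to 100) of the 15 regions that passed between wild type and empty vector, regions down the page with the 6 higher above the white line, groups across from the wild types to empty vector. At ATF3 46.2 kb upstream S320_G327del, at 35.7, is the altered construct nearest to the wild types, while most columns right of it are at or near 0.

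ARID1A and ARID1B wild type were compared through empty vector of their own runs. Against empty vector of runs A and B, ARID1A wild type had 3 higher regions (4.96% of all were), namely FOSB 11.6 kb upstream and ATF3 46.2 kb upstream and 30.5 kb downstream, and 1 lower (3.21% of all), JUN 31.0 kb upstream. Against empty vector of run C, ARID1B wild type had 4 higher (9.61% of all), namely FOSL2 36.2 kb upstream, JUND 33.1 kb downstream and ATF3 46.2 kb upstream and 1.3 kb downstream. It had 6 lower (6.92% of all). These were the FOS promoter, FOS 18.5 kb upstream, FOS 28.3 kb downstream, FOSB 16.4 kb upstream, FOSL1 39.4 kb downstream and JUND 9.7 kb upstream. In all, 3 regions differed, each in favour of ARID1A (2.53% of all regions), and 0 in favour of ARID1B (4.44% of all regions). At FOSB 11.6 kb upstream the difference of effects was 36.5 ± 3.1 (SE, limma adjusted p = 0.00436), and it passed whichever of the 8 libraries was left out, with values of 33.6 to 39.5. Ranked by fold enrichment it was 11.4 (limma adjusted p = 0.533). At ATF3 30.5 kb downstream it was 57.8 ± 8.6 (limma adjusted p = 0.0260), and it was lost without ARID1A wild type 1 or 2 (limma adjusted p = 0.0590 and 0.0540) or empty vector 3 or 4 (limma adjusted p = 0.0770 and 0.0694). In whole lists it was -12.8 and did not pass (limma adjusted p = 0.646).

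At FOS 28.3 kb downstream (hg19 chr14:75773778-75774942) the difference of effects was 38.9 ± 5.7 (SE, limma adjusted p = 0.0253), and it came from the empty-vector libraries alone. The call was lost in whole lists (57.0, limma adjusted p = 0.0570) and at an overlap of 50% (0, limma adjusted p = 1). All 4 wild-type libraries scored 0 there, as did empty vector 1 and 2, while empty vector 3 and 4 of run C scored 32.8 and 44.9. In whole lists the ARID1A wild-type peaks stood at ranks 24065 and 34314, ARID1B wild type had none, and empty vector stood at 19852, 23744, 13056 and 10708. The call was lost without ARID1A wild type 1 or 2, ARID1B wild type 2 or empty vector 1 or 2 (limma adjusted p = 0.0782, 0.0792, 0.0567, 0.0846 and 0.0794). ATF3 46.2 kb upstream did not differ past the threshold (9.10, limma adjusted p = 0.497), nor did JUND 33.1 kb downstream (-40.2, limma adjusted p = 0.142).

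**Figure D5:**
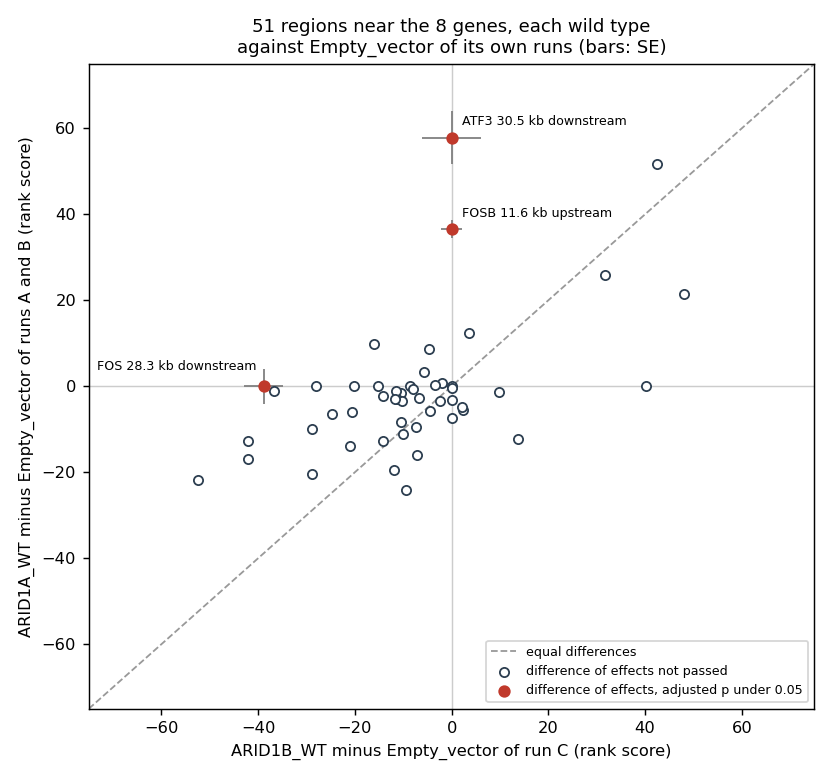
Rank score differences of the 51 regions, ARID1A wild type minus empty vector of runs A and B (vertical axis) against ARID1B wild type minus empty vector of run C (horizontal axis), with SE bars on the 3 regions past the threshold (filled) and a dashed line of equal differences. FOSB 11.6 kb upstream and ATF3 30.5 kb downstream lie above the line at 0 for ARID1B, and FOS 28.3 kb downstream lies at 0 for ARID1A and -38.9 for ARID1B.

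At equal length wild-type libraries called 29 to 38 of the 51 regions and empty-vector libraries 36 to 41. Over all 32972 regions they called 18879 to 19278 in wild type and 18981 to 19267 in empty vector. At full length, wild-type lists held 62 to 83 family peaks and empty-vector lists 48 to 68. At equal length the counts were 30 to 40 in wild type and 37 to 44 in empty vector. Of the 1713 member peaks, 1361 lay in the 51 regions and 352 in 49 weaker sites that no pair of equal-length lists shared. Among the 49, 10 had a peak in 1 library only, whereas regions of the whole lists needed 2 or more, so the shares are not like for like. Of these weaker sites, 8 (16.3%, against 18.2% of all regions of the whole lists) had a peak in all 4 wild-type and no empty-vector whole list, 4 near FOS, 2 near JUN, 1 near JUNB and 1 near JUND. None had the opposite pattern, in lists that were shorter for empty vector.

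A distal region near an AP-1 gene need not belong to it. Among genes with a RefSeq promoter window, no other protein-coding gene started within 50 kb of FOS, FOSL2, JUN or ATF3. Near FOSB there were 3 (ERCC1, RTN2 and VASP), near FOSL1 7, near JUNB 6 and near JUND 4. Genes without such a window, as FOSL1 is, were not counted, so more genes may start there. Across the 28 libraries the region whose scores followed the FOS promoter most closely was hg19 chr2:54784040-54787746, with Pearson's r = 0.931 as a description over libraries that share runs. For the other promoters the highest r elsewhere was 0.876 (JUN), 0.847 (JUND), 0.826 (FOSL1), 0.784 (FOSL2), 0.727 (JUNB) and 0.699 (FOSB).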

How the data were processed

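ATAC-seq of 28 AN3CA libraries in 13 groups was analysed from 1 broad peak list per library. The submitters' processing notes name bcl2fastq, Bowtie2 2.29, Picard 2.8.0, SAMtools 0.1.19, MACS2 and hg19, with no order or role. Caller options and any control were not stated. Per library, the authors deposited a fold enrichment (a ratio over the caller's background), −log10 values of its p-value and its q-value, and a score, for each peak. The deposited score was 10 times the −log10 q rounded down in 1247329 of 1247388 peaks. The smallest −log10 q of a list was 3.0014 to 3.0339, so lists share a cut-off. Depth is unknown.

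Peaks on chromosomes 1 to 22 and X were ranked by −log10 p, each list was cut to 19433, and peaks that overlapped by at least 1 bp were merged. A region needed a call from 2 or more libraries. Rank scores were fitted with limma 3.58.1 (R 4.3.3, trend), all 13 groups sharing 1 estimate of the spread, with Benjamini-Hochberg adjustment over 32972 regions. The wild types were compared with each other in a separate fit to their 4 libraries and the 4 empty-vector libraries. On simulated data most changes were recovered, and false calls exceeded the nominal share. The simulation gave every region the same spread and changed only regions of middle score, unlike regions that few lists call.

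The members and lists were chosen with earlier results of these data known. All 8 genes and their promoter regions are named. Distal regions are named if gained, lost or past the threshold in the wild-type test or in the comparison of the wild types, or if best ranked for their gene. The others (FOSB 16.4, FOSL1 26.5, JUN 28.1 and ATF3 5.9 kb) were chosen after their values were seen, and some of the altered constructs' calls are given as counts only. A list of related genes was not counted, because no hg19 annotation was used here. Alternatives were whole lists, shorter lists (9716 peaks), ranking by fold, other overlaps, windows and scales, run or replicate terms, and leaving out each library.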

Additional observations from a re-analysis of the deposited data

Results flagged for a closer look

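Chance alone marks about 1 in 20 groups of 4 libraries, and 2 of 26 groups were marked because 1 empty-vector library stood apart. At JUNB 15.5 kb upstream, empty vector 3 scored 58.7 while the others scored 40.9 to 42.8, so the gap was 0.898 of the range. At ATF3 30.5 kb downstream, empty vector 2 scored 15.7 and the others 0, so the gap was 1, the whole range. The effects of ARID1A and ARID1B wild type, each against empty vector of its runs, differed in limma at 3 regions. The difference of effects was 38.9 at FOS 28.3 kb downstream, 36.5 at FOSB 11.6 kb upstream and 57.8 at ATF3 30.5 kb downstream.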

How the results depend on the processing

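In whole lists 13 family regions were gained and 0 lost, 27 were higher and 1 lower, the altered constructs had 65 higher and 17 lower, and 8 differed between the wild types. In lists of 9716 peaks the counts were 1 gained, 0 lost, 2 higher, 1 lower, 3 and 6 for the altered constructs and 1 between the wild types. Ranked by fold enrichment they were 0 gained, 2 higher, 2 lower and 5 lower for the altered constructs. Ranked among peaks that all whole lists share they were 1 higher, 1 lower, 13 lower for the altered constructs and 0 between the wild types. Within 25 kb they were 0 gained, 2 higher, 5 lower, 4 higher for the altered constructs and 1 between the wild types. The lower count was 5 at an overlap of 50% and 5 on the log2 scale, and 9 regions lay within 2.5 kb of a start site, against 7 within 1 kb. Without the empty-vector libraries of run C, an alternative chosen after seeing the data, 6 were higher and 6 lower.

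Leaving out each library gave 2 to 3 gained, 1 to 2 lost (2 without ARID1A wild type 2 or empty vector 1), 6 to 7 higher, 4 to 10 lower, 8 to 12 higher and 23 to 34 lower for the altered constructs, and 1 to 6 between the wild types. The last was 1 without ARID1A wild type 1 or 2, 6 without ARID1B wild type 1 and 5 without empty vector 4.

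In whole lists these differences turned positive: FOS promoter 0.645, FOSB 23.2 kb upstream 6.63, FOSB 38.3 kb downstream 5.79, FOSL1 promoter 17.8, FOSL1 39.4 kb downstream 4.99, JUN 31.0 kb upstream 11.9, JUNB promoter 11.4, JUNB 15.5 kb upstream 3.99, JUND 9.7 kb upstream 7.74 and ATF3 42.6 kb downstream 1.77. At an overlap of 50%, FOS 18.5 kb upstream turned to 17.3 and FOSB 38.3 kb downstream to 3.81, and ranked by fold enrichment ATF3 1.3 kb downstream turned to -2.50. The cause was not tested, beyond that whole lists are longer in wild type.

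Replicate numbers 1 and 2 coincide with runs A and B for ARID1A wild type, DBDmut, delIDR1, CBR and empty vector, but ARID1B wild type 1 and 2 share a run, so the numbers do not pair the wild-type test as a whole. Among the 5 groups where they coincide, deviations of same-numbered libraries correlated at -0.028 to 0.208 over 10 pairs of groups (median 0.033), with 3 of the 10 over 0.1. With the replicate number as a block, in which empty vector 3 and 4 have no same-numbered wild type, 5 were higher and 6 lower, and 9 and 29 for the altered constructs. The block ended the calls at ATF3 1.3 kb downstream, FOS 18.5 kb upstream, FOSB 38.3 kb downstream, JUNB 15.5 kb upstream, JUND 9.7 kb upstream and ATF3 42.6 kb downstream (limma adjusted p = 0.0574, 0.116, 0.115, 0.136, 0.0540 and 0.160). The 6 lower with the block thus included regions that did not pass without it. The comparison of the wild types could not be fitted with the block. With run as a term, on libraries of runs A to C only, 5 were higher and 9 lower. FOSB 38.3 kb downstream, JUNB 15.5 kb upstream, FOS 18.5 kb upstream and ATF3 42.6 kb downstream lost the call. The 9 thus included other regions. That fit held CBR, DBDmut, delIDR1 and S320_G327del as the only altered constructs, with 7 higher and 22 lower. In the main fit these had 0, 1, 0 and 6 higher and 1, 0, 2 and 16 lower. Depth could not be checked in lists without counts, so an uncalled region may be open below the cut-off.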
